A study of Homo sapiens with 12 samples.

Results

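The 49 genes described here encode proteins that copy DNA. Of these, 8 act in origin licensing, 12 are subunits or activators of the replicative helicase, and 9 are subunits of DNA polymerases and primase. A further 11 form the sliding clamp, its loader, the single-strand binding protein and the enzymes that finish Okazaki fragments. The last groups hold 4 enzymes of deoxynucleotide supply and 5 proteins of chromatin assembly and S phase control. The genes were chosen by name for these roles, with no threshold on their values, and were found by symbol among the 60658 rows of the deposited table. All 49 were among the 13393 genes tested, those with 3 or more of the 12 libraries at 1 FPKM or above (fragments mapped to a transcript, corrected for its length in kilobases and for how many fragments the library had mapped).

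The libraries are poly(A) RNA sequencing of K-562 cells, a human erythroleukemia line. D152V rescue cells stably express a 3xTY-tagged D152V form of MYB and received the MYB siRNA, si2992. Wild-type rescue cells stably express 3xTY-tagged MYB (3xTY-hcM) and received the same siRNA. MYB knockdown cells carry the 3xTY1 tag with no MYB insert named and received si2992, and control siRNA cells are that same tag line with a non-targeting siRNA. Each group has 3 libraries from 3 experiments, all cells were G418-selected stable lines, and RNA was taken 24 hours after transfection. The rescue groups are therefore different stable lines from the knockdown and control groups, so line and rescue cannot be told apart in any comparison between them. The 2 rescue groups are separate stable lines as well, so line and substitution cannot be told apart either.

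Before S phase, the origin recognition complex, CDC6 and CDT1 load the MCM helicase on DNA as an inactive ring, and geminin then blocks CDT1 so that an origin is used once. At S phase entry CDC45 and the GINS complex join MCM to make the active helicase, and polymerases synthesise DNA behind it, held on the template by the PCNA clamp. Many of these genes are transcribed in bursts at the start of S phase under E2F factors. MYB is a transcription factor that keeps immature blood cells dividing, and several replication and cell cycle genes have been described as its targets.

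MYB itself had 86.6, 86.2 and 100.4 FPKM in D152V rescue libraries, 132, 125 and 115 in wild-type rescue libraries, 26.1, 32.9 and 31.5 in MYB knockdown libraries and 124, 132 and 104 in control siRNA libraries. The knockdown libraries lay below all others and kept 25.1% of the control mean (log2 change -1.96, SE 0.13, limma adjusted p = 3.03e-05). The table gives 1 MYB value per library and does not separate the tagged from the cell's own transcript. MYB was called lower in D152V rescue than in wild-type rescue (log2 change -0.44, limma adjusted p = 0.0494), a call that was lost without any 1 of 11 of the 12 libraries (limma adjusted p 0.0509 to 0.164), and held without MYB knockdown replicate 1. It was also lost with the replicate number as a block (limma adjusted p 0.0640).

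MYB knockdown replicate 1 stood apart from the 11 other libraries. Its FPKM values summed to 1215578, against 672616 to 798362 elsewhere, and over all tested genes its r with knockdown replicates 2 and 3 was 0.929 and 0.930, whereas every other pair within a group reached at least 0.983. Of the 49 replication genes, 12 lay more than 1 log2 unit from their control mean in that library, 1 in each of wild-type rescue replicates 1 and 2, and 0 in the other 9 libraries. Every comparison was therefore fitted with 12 libraries and again with the 11 that remain without it. One estimate of spread is shared across groups, so leaving it out also narrows the intervals of comparisons that hold no knockdown library. All 10 erythroid markers were detected, and summed to 2211 to 3768 FPKM in D152V rescue, 965 to 2010.0 in wild-type rescue, 1779.6 to 5913 in MYB knockdown and 1362 to 2860.2 in control siRNA, with no overlap between the rescues. Of the 10, limma called 1 higher and 4 lower in wild-type rescue than in knockdown, 3 lower in D152V rescue than in knockdown, and 1, HBE1, higher in D152V rescue than in wild-type rescue. Among 15 markers of other cell types 6 passed the filter, and MS4A1 and ELANE were at or near 0 throughout. The 5 lymphoid markers, led by CD3D, summed to 79.6 to 113 FPKM in D152V rescue, 34.7 to 60.9 in wild-type rescue, 18.1 to 77.0 in MYB knockdown and 19.9 to 25.9 in control siRNA libraries. The 5 monocyte and granulocyte markers summed to 3.76 to 5.37 FPKM in D152V rescue, 11.1 to 14.6 in wild-type rescue, 8.12 to 28.0 in MYB knockdown and 16.2 to 24.7 in control siRNA. The 5 fibroblast and epithelial markers summed to 32.8 to 38.9 FPKM in D152V rescue, 53.7 to 76.3 in wild-type rescue, 45.9 to 129 in MYB knockdown and 60.3 to 61.6 in control siRNA. Their part in the results was not tested.

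The replication genes were well expressed. Their control siRNA means ran from 9.66 FPKM for GINS4, a GINS subunit, to 243 FPKM for CDC45, with a median of 48.2 FPKM, against 11.4 FPKM over all tested genes. By role, the median control mean was highest for nucleotide supply at 122.5 FPKM and lowest for chromatin and S phase control at 35.4 FPKM. FPKM is scaled by transcript length, so these levels can be set side by side between genes. Exons of several members overlap other annotated genes, and since the use of strand in counting is not given, their values may hold reads of those neighbours. Besides the overlaps given with the genes below, noncoding genes on the opposite strand cover 1145 exonic bases of GINS4, 1113 of MCM2, 558 of GINS3, 425 of LIG1 and 256 of ORC2. Protein-coding genes cover 426 of POLD1, 362 of PRIM1, 89 of CHAF1B and 49 of FEN1 on the same strand. On the opposite strand they cover 259 of GINS1, 186 of RFC5 and 175 of RPA1. A noncoding gene covers 836 of PRIM2 on the same strand, and some further overlaps are not listed.

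**Figure D1:**
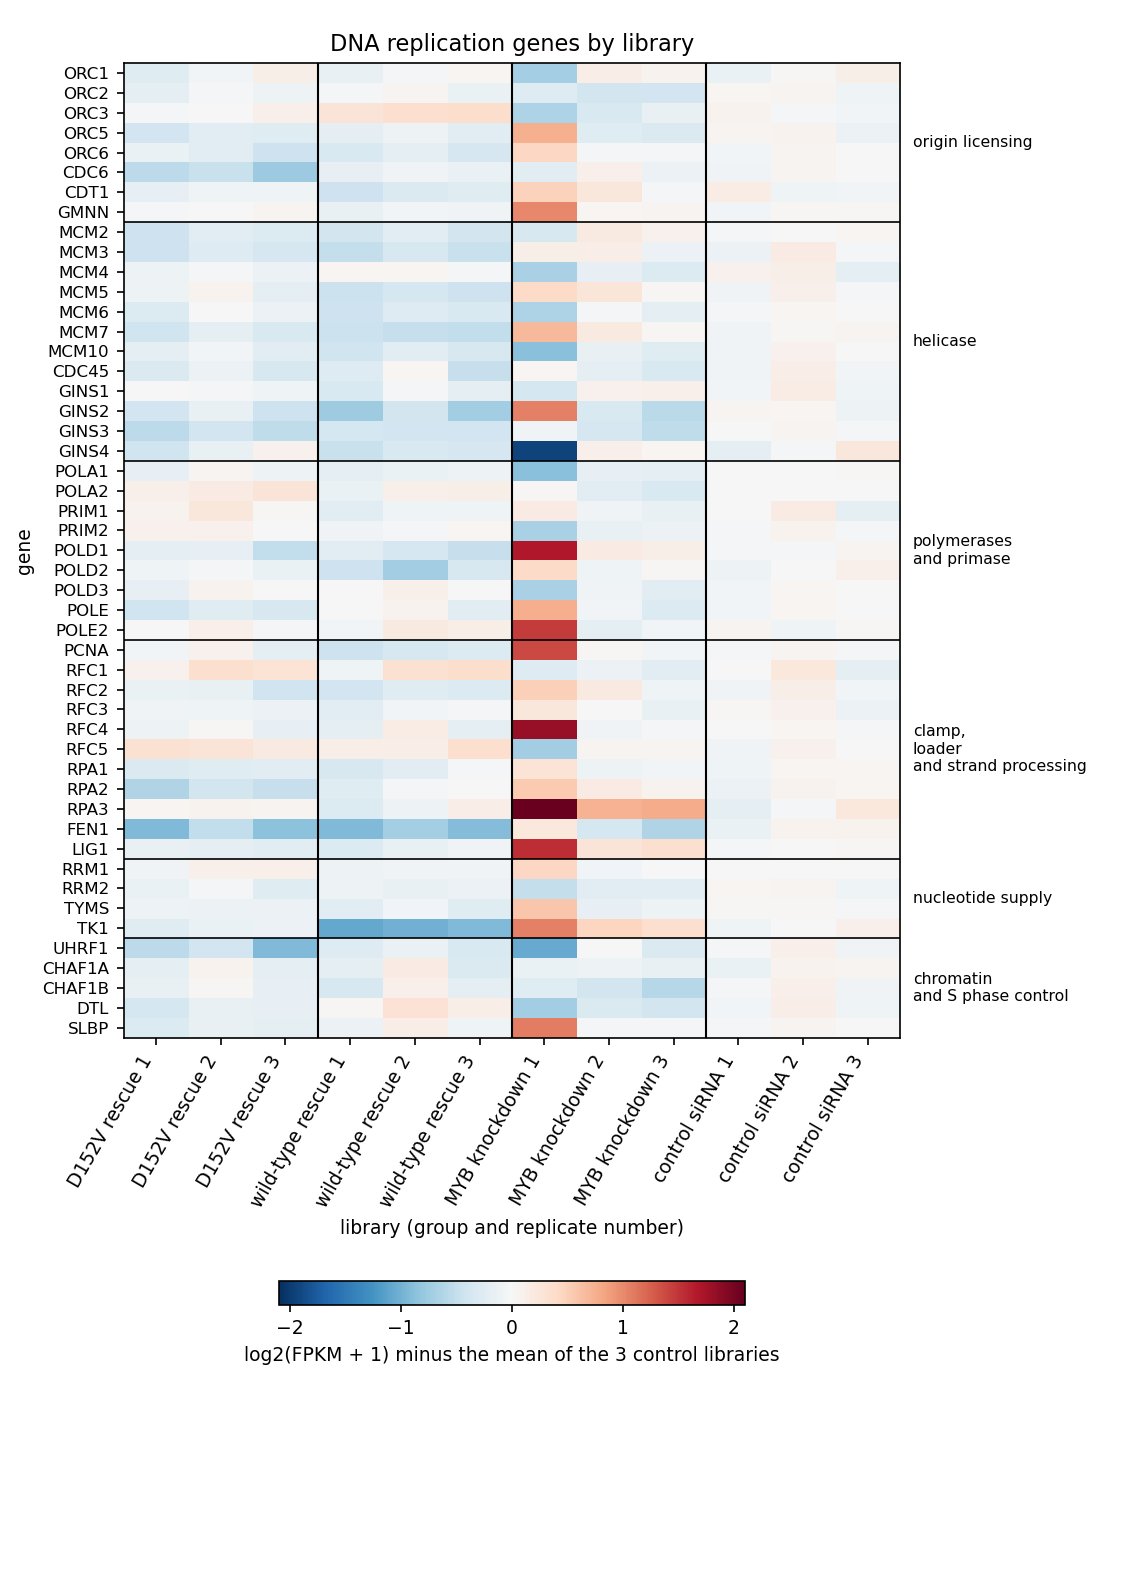
Each row is 1 of the 49 replication genes, grouped by role, and each column 1 library; colour is log2(FPKM + 1) minus the mean of the 3 control siRNA libraries of that gene. MYB knockdown replicate 1 holds the strongest colours, from -1.95 for GINS4 to 2.07 for RPA3, while FEN1 is low in both rescues and TK1 in the wild-type rescue.

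The heat map shows 2 patterns that do not rest on knockdown replicate 1. Changes from control siRNA were below 0 for all 12 helicase genes in D152V rescue and for 11 of them in wild-type rescue. Over all tested genes 55.1% lay below 0 in D152V rescue and 52.0% in wild-type rescue. Against control siRNA the lowest change was that of FEN1 in D152V rescue (-0.76) and that of TK1 in wild-type rescue (-1.01), where FEN1 was also low (-0.85). Within the knockdown group, replicates 2 and 3 look like each other and not like replicate 1, so most knockdown means below carry a wide SD.

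Promoters were read because many of these genes are known to be transcribed at the start of S phase, a timing not measured here. RefSeq windows on GRCh38.p14, running from 250 bases before to 50 after a gene's start, were found for 43 of the 49 genes, 55 windows in all. Not matched were MCM4, MCM5, GINS4, POLD3, RPA2 and RPA3. Letter strings of the E2F type (TTTCCCGC, TTTCGCGC, TTTGCCGC and TTTGGCGC, on either strand) occurred in 22 of the 55 windows (40%), against 3.32% of the 35116 windows of all genes. Counted by gene, 21 of 43 replication genes (48.8%) held one, against 3.99% of 27305 genes. CCAAT, the letters bound by NF-Y, occurred in 60% of the members' windows and 34.6% of all windows, and AACNG, the core read by MYB, in 80% and 77.2%. The letters TTTGAA of the CHR element, known from late cell cycle genes, occurred in 1.82% of the members' windows and 15.2% of all. The members' windows were also richer in G and C, with a median of 66% against 58.7%, and these shares are descriptions of letters, not of bound sites.

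Printed are 3 windows, for CDC6 and TK1, the members that differed between the rescues, and for MCM3, which was lower in both rescues than in the knockdown. Capitals mark E2F-type strings and CCAAT or its reverse complement ATTGG, and each window is read 5′ to 3′ on the gene's own strand. CDC6 lies at chr17:40287629-40287928 on the plus strand, MCM3 at chr6:52284693-52284992 on the minus strand and TK1, in the 1 of its 2 windows with the most matches, at chr17:78187003-78187302 on the minus strand.
CDC6: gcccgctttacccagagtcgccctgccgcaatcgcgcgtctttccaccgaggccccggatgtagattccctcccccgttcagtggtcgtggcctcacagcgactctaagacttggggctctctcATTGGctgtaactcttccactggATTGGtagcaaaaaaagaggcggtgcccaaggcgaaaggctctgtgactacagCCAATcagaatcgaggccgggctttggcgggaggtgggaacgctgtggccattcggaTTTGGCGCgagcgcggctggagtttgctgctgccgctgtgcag
MCM3: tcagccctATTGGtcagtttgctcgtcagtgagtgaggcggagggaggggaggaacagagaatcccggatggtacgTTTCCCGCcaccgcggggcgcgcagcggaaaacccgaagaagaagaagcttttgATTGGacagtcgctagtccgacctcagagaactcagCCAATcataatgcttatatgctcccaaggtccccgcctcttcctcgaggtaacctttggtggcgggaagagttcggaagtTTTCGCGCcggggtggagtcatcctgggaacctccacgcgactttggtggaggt
TK1: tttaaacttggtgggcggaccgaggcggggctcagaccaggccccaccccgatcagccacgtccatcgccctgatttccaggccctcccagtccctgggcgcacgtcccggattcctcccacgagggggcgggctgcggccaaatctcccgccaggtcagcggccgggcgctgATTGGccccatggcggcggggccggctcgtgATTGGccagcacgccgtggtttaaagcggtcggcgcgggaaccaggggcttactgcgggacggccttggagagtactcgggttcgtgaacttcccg
CDC6 holds 1 E2F-type string, just after its start, and 3 CCAAT matches. MCM3 holds 2 E2F-type strings and 3 CCAAT matches. TK1 holds 2 CCAAT matches and none of the 4 E2F-type strings in this window.

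Among the enzymes of nucleotide supply, TK1 differed most between the groups. TK1 (ENSG00000167900, chr17:78174079-78187204 on GRCh38.p14) is the cytosolic thymidine kinase, which salvages thymidine for DNA synthesis. TK1 had 47.0, 51.1 and 52.0 FPKM in D152V rescue libraries, 26.4, 27.4 and 29.2 in wild-type rescue libraries, 118, 77.7 and 72.8 in MYB knockdown libraries and 53.0, 56.2 and 60.7 in control siRNA libraries. The wild-type rescue libraries lay below every other library, the D152V rescue libraries just below the control libraries, and the 3 knockdown libraries above all, so no 2 groups overlapped. Mean TK1 was 50.05 ± 2.64 FPKM in D152V rescue and 27.7 ± 1.40 FPKM in wild-type rescue (SD, n = 3 each). TK1 was thus higher in D152V rescue than in wild-type rescue (log2 change 0.83, SE 0.16, limma adjusted p = 0.00578, 95% interval 0.48 to 1.19). This call held under all 18 alternative settings, with adjusted p from 1.43e-05 to 0.0275. TK1 was lower in wild-type rescue than in knockdown (log2 change -1.63, SE 0.16, limma adjusted p = 7.15e-05) and lower than in control siRNA (log2 change -1.01, SE 0.16, limma adjusted p = 0.00283), where it stood at 48.9% of the control mean. In D152V rescue it stood at 88.4% of the control mean, a difference that did not pass (log2 change -0.17, limma adjusted p = 0.617; 95% interval -0.53 to 0.18), and it was lower than in knockdown (log2 change -0.79, SE 0.16, limma adjusted p = 0.00669). The D152V call against knockdown was lost when only the 6 libraries compared were fitted. In the knockdown TK1 rose over control siRNA (log2 change 0.62, SE 0.16, limma adjusted p = 0.0348), but that call was lost without any 1 of 8 of the 12 libraries (limma adjusted p 0.0508 to 0.129), and held without wild-type rescue replicate 3 and MYB knockdown replicates 1, 2 and 3. With the 11 libraries it stood (log2 change 0.40, limma adjusted p = 0.00681).

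The other 3 enzymes of this role moved little. RRM1, the large subunit of ribonucleotide reductase, had 96.4, 109.7 and 109 FPKM in D152V rescue libraries, 94.1, 96.6 and 96.5 in wild-type rescue libraries, 138, 97.2 and 101 in MYB knockdown libraries and 101, 102 and 101 in control siRNA libraries. RRM2, its small subunit, had 179.8, 197 and 166 FPKM in D152V rescue libraries, 185, 178 and 182 in wild-type rescue libraries, 140.3, 169.7 and 168 in MYB knockdown libraries and 204, 208 and 186 in control siRNA libraries. TYMS, which makes thymidylate from deoxyuridylate, had 133, 132 and 132 FPKM in D152V rescue libraries, 123, 137 and 120.2 in wild-type rescue libraries, 215, 127 and 133 in MYB knockdown libraries and 145, 146 and 139.9 in control siRNA libraries. RRM1 was above the control range in knockdown replicate 1 alone among the knockdown libraries, and RRM2 lay below all control libraries in the knockdown and in wild-type rescue without passing the test (knockdown minus control log2 change -0.32, limma adjusted p = 0.0865). TYMS was called in 1 comparison, lower in wild-type rescue than in control siRNA with 11 libraries (log2 change -0.18, limma adjusted p = 0.0498). The ratio of TK1 to TYMS was 0.379 ± 0.0227 in D152V rescue, 0.219 ± 0.0216 in wild-type rescue, 0.569 ± 0.0359 in MYB knockdown and 0.395 ± 0.0352 in control siRNA (SD, n = 3 each). Since TYMS overlaps ENOSF1 on the opposite strand over 967 exonic bases, and the use of strand in counting is not given, its reads cannot be fully told from that neighbour's.

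**Figure D2:**
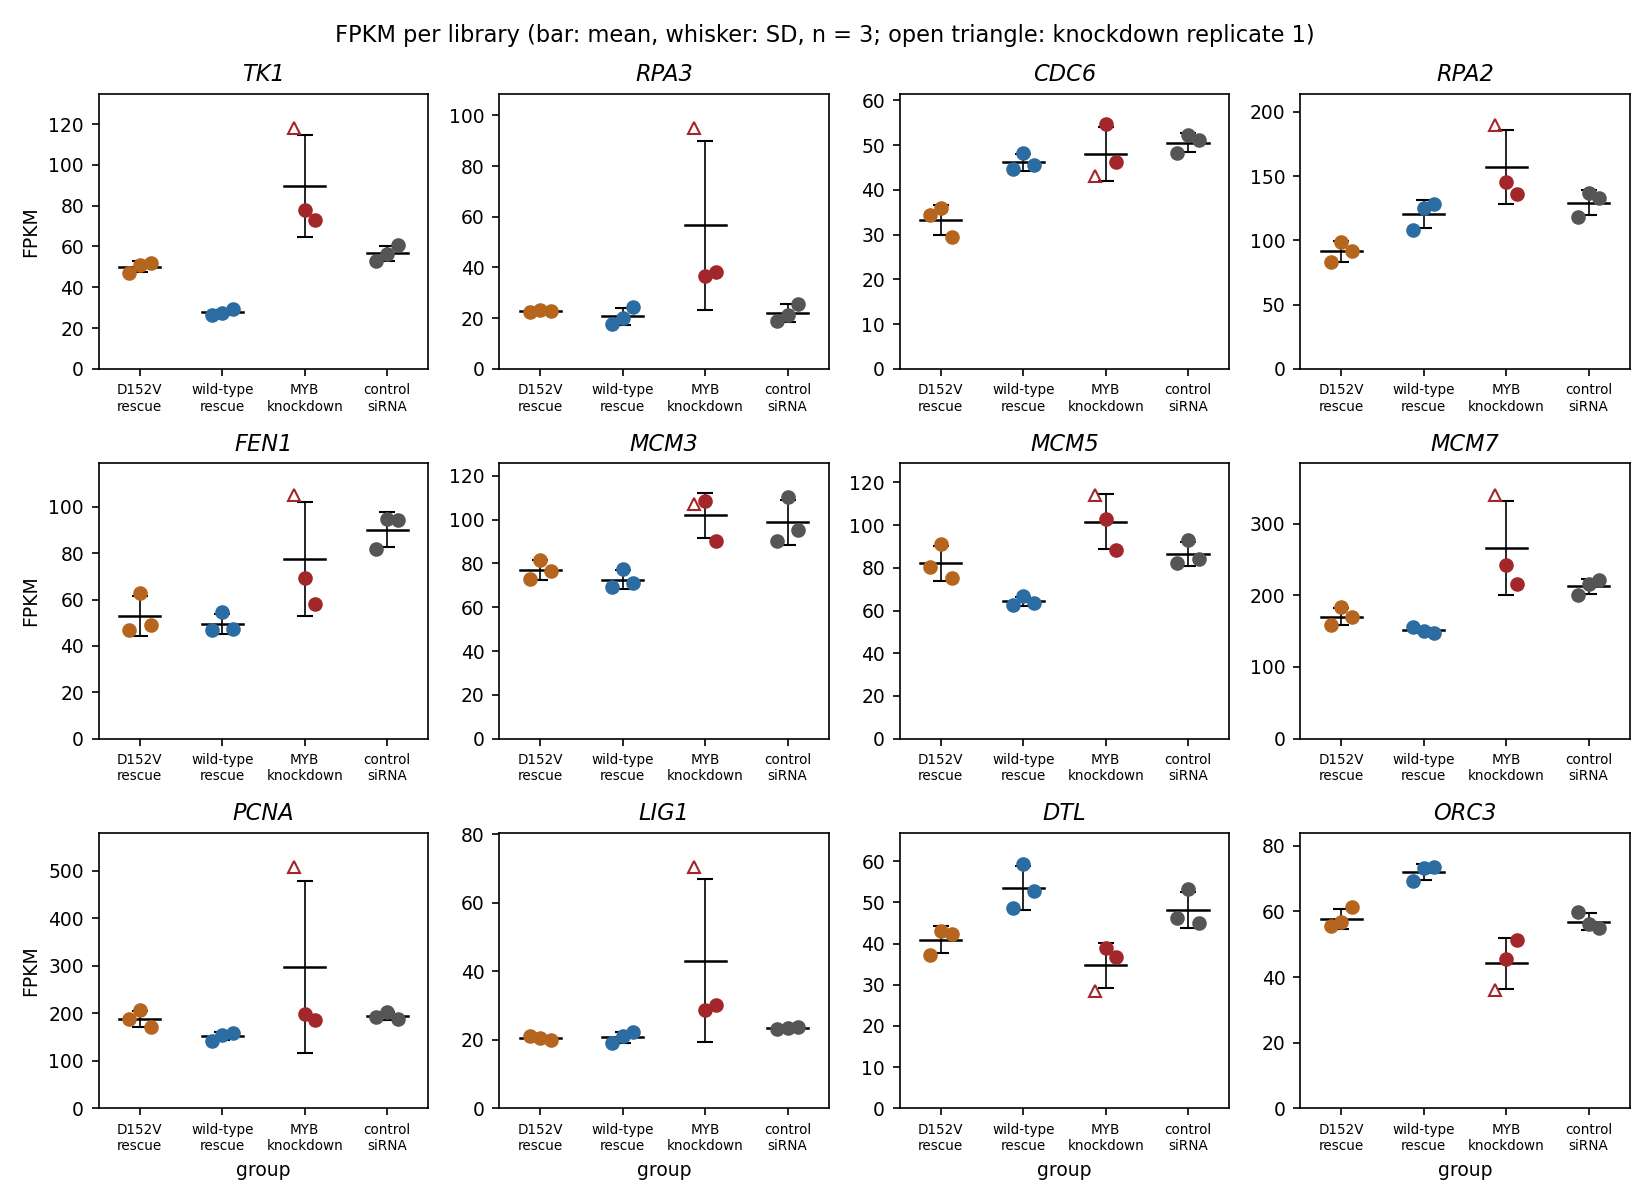
FPKM per library for 12 replication genes, with the 4 groups along each x axis from D152V rescue to control siRNA and FPKM from 0 on the y axis; bars are means, whiskers SD over 3 libraries, and the open triangle is MYB knockdown replicate 1. TK1 separates all groups, CDC6 and RPA2 are lowest in D152V rescue, FEN1 is lower in both rescues than in control siRNA, and the open triangle sets the knockdown whiskers of RPA3, PCNA and LIG1.

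The plots of single genes show which differences are carried by 3 libraries a group and which by 1. TK1 has narrow whiskers in both rescues, and MCM5 and CDC6 in wild-type rescue (SD 2.04 and 1.85 FPKM). Those of MCM5 and CDC6 are wider in D152V rescue (SD 8.24 and 3.39 FPKM). RPA3, PCNA and LIG1 have knockdown whiskers set by replicate 1, although replicates 2 and 3 of RPA3 and LIG1 still sit above the control libraries.

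Origin licensing differed between the lines mainly through CDC6 and ORC3. CDC6 (ENSG00000094804, chr17:40287879-40304657 on GRCh38.p14) is the ATPase that joins the origin recognition complex to load MCM. CDC6 had 34.3, 36.0 and 29.5 FPKM in D152V rescue libraries, 44.6, 48.2 and 45.6 in wild-type rescue libraries, 43.1, 54.7 and 46.2 in MYB knockdown libraries and 48.2, 52.4 and 51.1 in control siRNA libraries. All D152V rescue libraries lay below all 9 others. CDC6 averaged 33.3 ± 3.39 FPKM in D152V rescue and 46.1 ± 1.85 FPKM in wild-type rescue (SD, n = 3 each), and it was lower in D152V rescue than in wild-type rescue (log2 change -0.46, SE 0.12, limma adjusted p = 0.0249; 95% interval -0.72 to -0.20). That call was lost without any 1 of D152V rescue replicates 1 and 3 and wild-type rescue replicates 1, 2 and 3 (limma adjusted p 0.0614 to 0.108) and with quantile normalization. CDC6 was also lower in D152V rescue than in knockdown (log2 change -0.51, SE 0.12, limma adjusted p = 0.0117) and than in control siRNA (log2 change -0.59, SE 0.12, limma adjusted p = 0.00844), where it held under all 18 alternatives. The call against the knockdown was lost when only the 6 libraries compared were fitted (limma adjusted p 0.113). In wild-type rescue the change from control siRNA did not pass (log2 change -0.13, limma adjusted p = 0.582), although its 3 values lay below the 3 control values.

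ORC3 (ENSG00000135336, chr6:87590135-87677823 on GRCh38.p14), a core subunit of the origin recognition complex, had 55.5, 56.7 and 61.3 FPKM in D152V rescue libraries, 69.2, 73.2 and 73.6 in wild-type rescue libraries, 35.9, 45.4 and 51.2 in MYB knockdown libraries and 59.7, 56.2 and 54.9 in control siRNA libraries. The wild-type rescue libraries lay above all others and the knockdown libraries below all others. ORC3 was higher in wild-type rescue than in knockdown (log2 change 0.71, SE 0.13, limma adjusted p = 0.00194), under all 18 alternatives. It was higher in D152V rescue than in knockdown as well (log2 change 0.40, limma adjusted p = 0.042), a call that was lost without any 1 of 10 of the 12 libraries (limma adjusted p 0.0506 to 0.123), and held without MYB knockdown replicates 1 and 3. With 11 libraries ORC3 was lower in D152V rescue than in wild-type rescue (log2 change -0.31, limma adjusted p = 0.00638) and higher in wild-type rescue than in control siRNA (log2 change 0.33, limma adjusted p = 0.00508).

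The other subunits of the complex were steadier. ORC1, the subunit that recruits the rest to origins, had 23.7, 27.4 and 31.0 FPKM in D152V rescue libraries, 25.5, 27.9 and 29.5 in wild-type rescue libraries, 16.99, 31.6 and 30.1 in MYB knockdown libraries and 25.7, 29.0 and 31.1 in control siRNA libraries, and its groups overlapped except for wild-type rescue against knockdown replicates 2 and 3. ORC2 had 25.4, 28.7 and 27.4 FPKM in D152V rescue libraries, 29.1, 30.8 and 26.5 in wild-type rescue libraries, 24.4, 22.3 and 22.1 in MYB knockdown libraries and 30.4, 30.7 and 27.5 in control siRNA libraries, with the knockdown below all others. It was higher in wild-type rescue than in knockdown (log2 change 0.31, limma adjusted p = 0.0358), a call lost without any 1 of D152V rescue replicate 2, wild-type rescue replicates 1 and 2, MYB knockdown replicates 2 and 3 and control siRNA replicates 1 and 2 (limma adjusted p 0.0513 to 0.122), and with 11 libraries it was lower in knockdown than in control siRNA (log2 change -0.39, limma adjusted p = 0.0108) and higher in D152V rescue than in knockdown (log2 change 0.28, limma adjusted p = 0.0338). ORC5 had 49.6, 56.2 and 54.9 FPKM in D152V rescue libraries, 57.2, 60.9 and 55.9 in wild-type rescue libraries, 110.4, 54.8 and 52.8 in MYB knockdown libraries and 68.4, 68.7 and 60.1 in control siRNA libraries. Knockdown replicate 1 was the highest value and replicates 2 and 3 were below all control libraries. With 12 libraries ORC5 had a knockdown minus control change of 0.06, and with 11 it fell (log2 change -0.28, limma adjusted p = 0.0371). It was also lower in D152V rescue than in control siRNA with 11 libraries (log2 change -0.29, limma adjusted p = 0.0153).

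ORC6, the smallest subunit, had 26.7, 25.03 and 21.6 FPKM in D152V rescue libraries, 23.6, 25.5 and 23.0 in wild-type rescue libraries, 40.4, 28.6 and 28.7 in MYB knockdown libraries and 28.2, 31.0 and 29.6 in control siRNA libraries. Both rescues lay below the control and knockdown libraries. ORC6 was lower in wild-type rescue than in knockdown (log2 change -0.41, limma adjusted p = 0.0425), a call lost without any 1 of 9 of the 12 libraries (limma adjusted p 0.0519 to 0.11), and held without D152V rescue replicate 3 and MYB knockdown replicates 2 and 3. Against control siRNA it was lower in D152V rescue (log2 change -0.27, limma adjusted p = 0.0356) and in wild-type rescue (log2 change -0.29, limma adjusted p = 0.0245) with 11 libraries. CDT1, the factor that brings MCM to origins, had 32.5, 34.4 and 34.1 FPKM in D152V rescue libraries, 26.7, 29.3 and 30.4 in wild-type rescue libraries, 51.4, 43.1 and 35.9 in MYB knockdown libraries and 40.9, 34.1 and 35.0 in control siRNA libraries. Wild-type rescue was lowest and did not overlap any other group. CDT1 was lower in wild-type rescue than in knockdown (log2 change -0.57, SE 0.13, limma adjusted p = 0.00806) and, with 11 libraries, than in control siRNA (log2 change -0.34, limma adjusted p = 0.0189). The D152V minus wild-type difference did not pass (log2 change 0.22, limma adjusted p = 0.362). GMNN, geminin, had 139.5, 145 and 150.1 FPKM in D152V rescue libraries, 129.6, 139 and 137 in wild-type rescue libraries, 292, 148 and 149.9 in MYB knockdown libraries and 138, 147 and 147 in control siRNA libraries and was called in no comparison. Knockdown replicate 1 stood near 2 times the other libraries for GMNN.

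Of the 12 helicase genes, MCM3, MCM5 and MCM7 were called lower in wild-type rescue than in knockdown and MCM4 higher, and MCM3 and MCM7 were called lower in D152V rescue than in knockdown. MCM3, an MCM ring subunit, had 72.9, 81.7 and 76.6 FPKM in D152V rescue libraries, 69.4, 77.5 and 71.1 in wild-type rescue libraries, 107, 109 and 90.3 in MYB knockdown libraries and 90.5, 110.5 and 95.5 in control siRNA libraries. Its rescue libraries lay below all knockdown and control libraries. MCM3 was lower than in knockdown in D152V rescue (log2 change -0.40, limma adjusted p = 0.0322) and in wild-type rescue (log2 change -0.48, SE 0.12, limma adjusted p = 0.00934), and lower than in control siRNA in wild-type rescue (log2 change -0.43, limma adjusted p = 0.0394). The wild-type call against knockdown held without each library but not with quantile normalization. The D152V call against knockdown was lost without any 1 of D152V rescue replicates 1, 2 and 3 and MYB knockdown replicate 2 (limma adjusted p 0.0648 to 0.104), and the wild-type call against control was lost without any 1 of 9 of the 12 libraries (limma adjusted p 0.0594 to 0.165), and held without MYB knockdown replicates 1, 2 and 3.

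MCM5, a subunit beside the gate through which DNA enters the ring, had 80.4, 91.2 and 75.0 FPKM in D152V rescue libraries, 62.8, 66.6 and 63.4 in wild-type rescue libraries, 114, 103 and 88.1 in MYB knockdown libraries and 82.2, 93.0 and 84.2 in control siRNA libraries. The wild-type rescue libraries were below all others, and the other 3 groups overlapped. MCM5 was lower in wild-type rescue than in knockdown (log2 change -0.65, SE 0.12, limma adjusted p = 0.00249), under all 18 alternatives. With 11 libraries it was higher in D152V rescue than in wild-type rescue (log2 change 0.35, limma adjusted p = 0.0122) and lower in wild-type rescue than in control siRNA (log2 change -0.42, limma adjusted p = 0.00487). MCM7 had 159, 183 and 169 FPKM in D152V rescue libraries, 155, 151 and 148 in wild-type rescue libraries, 340.0, 243 and 216 in MYB knockdown libraries and 201, 216 and 221 in control siRNA libraries. Its wild-type rescue libraries were lowest, its D152V rescue libraries next, and its knockdown and control libraries overlapped above them. MCM7 was lower than in knockdown in D152V rescue (log2 change -0.62, limma adjusted p = 0.0164) and in wild-type rescue (log2 change -0.79, SE 0.15, limma adjusted p = 0.00313). The D152V call was lost without any 1 of D152V rescue replicates 1 and 3 (limma adjusted p 0.0515 to 0.0618). MCM7 shares 392 exonic bases with AP4M1 on the opposite strand, so its values may hold reads of that gene.

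MCM2, whose tail also binds histones, had 29.4, 34.3 and 32.8 FPKM in D152V rescue libraries, 30.7, 33.8 and 30.7 in wild-type rescue libraries, 31.7, 45.9 and 42.7 in MYB knockdown libraries and 38.9, 40.2 and 41.6 in control siRNA libraries. With 12 libraries it was called in no comparison. With 11 libraries it was lower than in knockdown in D152V rescue (log2 change -0.45, limma adjusted p = 0.0025) and in wild-type rescue (log2 change -0.47, limma adjusted p = 0.00115), and lower than in control siRNA in both. MCM4, part of the ring's motor, had 159.6, 166 and 156 FPKM in D152V rescue libraries, 176, 176 and 167 in wild-type rescue libraries, 106, 151.7 and 139 in MYB knockdown libraries and 181, 186 and 148 in control siRNA libraries. Knockdown was lower than both rescues in every library. MCM4 was the 1 helicase gene called higher in wild-type rescue than in knockdown (log2 change 0.40, limma adjusted p = 0.048), and that call was lost without any 1 of 10 of the 12 libraries (limma adjusted p 0.051 to 0.118), and held without MYB knockdown replicate 2 and control siRNA replicate 3. MCM6 had 64.3, 78.8 and 72.1 FPKM in D152V rescue libraries, 58.2, 65.4 and 62.8 in wild-type rescue libraries, 49.8, 76.5 and 69.5 in MYB knockdown libraries and 76.6, 81.1 and 79.2 in control siRNA libraries, and with 11 libraries it was lower in wild-type rescue than in control siRNA (log2 change -0.34, limma adjusted p = 0.00984). MCM10, which helps the helicase to fire, had 22.7, 24.8 and 22.1 FPKM in D152V rescue libraries, 19.1, 21.8 and 20.4 in wild-type rescue libraries, 13.7, 23.2 and 21.6 in MYB knockdown libraries and 24.5, 27.6 and 25.7 in control siRNA libraries. Its lowest value was that of knockdown replicate 1, and with 11 libraries it was lower in wild-type rescue than in control siRNA (log2 change -0.33, limma adjusted p = 0.0106).

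CDC45, the helicase activator with the highest control level of the set, had 196, 221 and 192 FPKM in D152V rescue libraries, 201, 249.3 and 172 in wild-type rescue libraries, 249.5, 209 and 193 in MYB knockdown libraries and 229, 267 and 231 in control siRNA libraries. The groups overlapped except that D152V rescue lay below control siRNA, and no comparison called it (D152V minus control log2 change -0.25, limma adjusted p = 0.396). The 4 GINS subunits differed in how they behaved. GINS2 had 22.8, 27.1 and 22.2 FPKM in D152V rescue libraries, 17.8, 23.1 and 18.0 in wild-type rescue libraries, 64.9, 24.3 and 20.3 in MYB knockdown libraries and 31.7, 31.5 and 28.4 in control siRNA libraries. Knockdown replicate 1 was far above the rest while replicates 2 and 3 were below all control libraries, so the knockdown minus control change was 0.06 with 12 libraries and fell by 0.44 with 11 (log2 change -0.44, limma adjusted p = 0.0375). GINS3 had 11.5, 12.8 and 11.6 FPKM in D152V rescue libraries, 13.1, 12.7 and 12.8 in wild-type rescue libraries, 16.3, 13.3 and 11.6 in MYB knockdown libraries and 17.1, 18.0 and 16.7 in control siRNA libraries. Both rescues and the knockdown lay below all control libraries, and GINS3 was lower in D152V rescue than in control siRNA (log2 change -0.49, SE 0.12, limma adjusted p = 0.0289), a call lost without any 1 of D152V rescue replicates 1, 2 and 3 and control siRNA replicates 1, 2 and 3 (limma adjusted p 0.0606 to 0.115). With 11 libraries GINS3 was lower than in control siRNA in wild-type rescue (log2 change -0.39, limma adjusted p = 0.00401) and in knockdown (log2 change -0.44, limma adjusted p = 0.00627). GINS4 had 6.89, 8.45 and 10.2 FPKM in D152V rescue libraries, 6.64, 7.45 and 7.30 in wild-type rescue libraries, 1.74, 10.4 and 9.84 in MYB knockdown libraries and 8.13, 9.44 and 11.4 in control siRNA libraries, and the value of knockdown replicate 1 was 0.180 times the control mean. Its wild-type minus knockdown change was 0.22 with 12 libraries and -0.45 with 11, where it was called lower (log2 change -0.45, limma adjusted p = 0.0354). GINS1 ranged from 15.4 to 22.6 FPKM over all libraries and was called in no comparison.

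Among polymerase and primase genes, the delta subunits POLD1 and POLD2 were the 2 called lower in wild-type rescue than in knockdown with 12 libraries. POLD2, the accessory subunit of polymerase delta, had 175, 183 and 169.5 FPKM in D152V rescue libraries, 137, 112 and 147 in wild-type rescue libraries, 246, 175 and 190.0 in MYB knockdown libraries and 174, 185 and 200.2 in control siRNA libraries. The wild-type rescue libraries lay below all others. POLD2 was lower in wild-type rescue than in knockdown (log2 change -0.62, SE 0.15, limma adjusted p = 0.00823). With 11 libraries it was higher in D152V rescue than in wild-type rescue (log2 change 0.42, limma adjusted p = 0.00701) and lower in wild-type rescue than in control siRNA (log2 change -0.51, limma adjusted p = 0.00309). POLD1, the catalytic subunit of lagging strand synthesis, had 47.6, 48.7 and 38.0 FPKM in D152V rescue libraries, 46.5, 42.7 and 38.9 in wild-type rescue libraries, 178, 62.2 and 59.99 in MYB knockdown libraries and 53.9, 53.4 and 57.3 in control siRNA libraries. Knockdown replicate 1 was 3.24 times the control mean, and both rescues lay below all control libraries. POLD1 was lower in wild-type rescue than in knockdown (log2 change -1.02, SE 0.32, limma adjusted p = 0.0299), a change of -0.51 with 11 libraries, and the call was lost without any 1 of wild-type rescue replicates 1, 2 and 3 (limma adjusted p 0.0584 to 0.0819). With 11 libraries it was also lower in D152V rescue than in knockdown (log2 change -0.45, limma adjusted p = 0.00992) and lower than in control siRNA in D152V rescue (log2 change -0.30, limma adjusted p = 0.044) and wild-type rescue (log2 change -0.36, limma adjusted p = 0.0185).

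POLE, the catalytic subunit of leading strand synthesis, had 19.4, 21.8 and 20.5 FPKM in D152V rescue libraries, 26.5, 27.5 and 22.3 in wild-type rescue libraries, 45.1, 25.1 and 21.4 in MYB knockdown libraries and 25.1, 27.1 and 26.5 in control siRNA libraries. D152V rescue lay below both wild-type rescue and control siRNA. With 11 libraries POLE was lower in D152V rescue than in wild-type rescue (log2 change -0.29, limma adjusted p = 0.0376) and than in control siRNA (log2 change -0.34, limma adjusted p = 0.0216). POLE2, its second subunit, had 33.3, 36.0 and 32.3 FPKM in D152V rescue libraries, 31.7, 38.0 and 36.3 in wild-type rescue libraries, 94.0, 29.1 and 31.8 in MYB knockdown libraries and 34.6, 31.2 and 34.0 in control siRNA libraries, and was called in no comparison. POLA1, the catalytic subunit of the polymerase that starts each fragment, had 17.6, 20.9 and 18.5 FPKM in D152V rescue libraries, 17.2, 18.1 and 18.5 in wild-type rescue libraries, 10.4, 17.7 and 17.1 in MYB knockdown libraries and 19.9, 19.7 and 20.2 in control siRNA libraries, and was called in none either. POLA2, its regulatory subunit, had 51.5, 54.5 and 58.4 FPKM in D152V rescue libraries, 43.5, 51.7 and 52.3 in wild-type rescue libraries, 48.7, 40.4 and 38.3 in MYB knockdown libraries and 48.1, 47.5 and 48.4 in control siRNA libraries. The D152V rescue libraries were above all knockdown and control libraries, and POLA2 was higher in D152V rescue than in knockdown (log2 change 0.37, limma adjusted p = 0.0442). That call was lost without any 1 of 10 of the 12 libraries (limma adjusted p 0.0565 to 0.133), and held without wild-type rescue replicate 1 and MYB knockdown replicate 1. With 11 libraries it was lower in knockdown than in control siRNA (log2 change -0.28, limma adjusted p = 0.0477), and higher in wild-type rescue than in knockdown (log2 change 0.31, limma adjusted p = 0.0155). POLA2 shares 2012 exonic bases with a readthrough gene on the same strand. The other 3 genes of this role, POLD3, PRIM1 and PRIM2, were called in no comparison and ranged from 7.36 FPKM for POLD3 to 104.0 FPKM for PRIM1.

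The subunits of replication protein A, which coats single-stranded DNA as 1 complex, did not move together. RPA3, the smallest subunit (ENSG00000106399, chr7:7636518-7718607 on GRCh38.p14), had 22.5, 23.1 and 22.8 FPKM in D152V rescue libraries, 17.7, 20.2 and 24.2 in wild-type rescue libraries, 94.9, 36.8 and 38.0 in MYB knockdown libraries and 18.9, 21.3 and 25.7 in control siRNA libraries. The 3 knockdown libraries lay above all 9 others, with replicate 1 at 4.32 times the control mean. RPA3 rose in the knockdown against control siRNA (log2 change 1.19, SE 0.29, limma adjusted p = 0.0292), and the call was lost without any 1 of control siRNA replicates 1, 2 and 3 (limma adjusted p 0.0592 to 0.115). Without knockdown replicate 1 it held at a smaller size (log2 change 0.75, SE 0.13, limma adjusted p = 0.00373). It was lower than in knockdown in D152V rescue (log2 change -1.13, SE 0.29, limma adjusted p = 0.0197) and in wild-type rescue (log2 change -1.27, SE 0.29, limma adjusted p = 0.00706), by -0.69 and -0.83 on the log2 scale with 11 libraries. The D152V call was lost without any 1 of D152V rescue replicates 1, 2 and 3 (limma adjusted p 0.0563 to 0.0576). RPA3 overlaps UMAD1 on the opposite strand over 118 exonic bases.

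RPA2, the subunit phosphorylated under replication stress, had 83.1, 98.8 and 91.9 FPKM in D152V rescue libraries, 108, 125 and 128 in wild-type rescue libraries, 189, 146 and 136 in MYB knockdown libraries and 119, 136 and 133 in control siRNA libraries. The D152V rescue libraries lay below every other library. RPA2 was lower in D152V rescue than in knockdown (log2 change -0.76, SE 0.14, limma adjusted p = 0.00442) and than in control siRNA (log2 change -0.50, limma adjusted p = 0.0492). The call against knockdown was lost when only the 6 libraries compared were fitted. The call against control siRNA was lost without any 1 of 10 of the 12 libraries (limma adjusted p 0.0556 to 0.178), and held without MYB knockdown replicates 1 and 3. With 11 libraries RPA2 was lower in D152V rescue than in wild-type rescue (log2 change -0.40, limma adjusted p = 0.00674). RPA1, the large subunit, had 29.2, 30.4 and 30.6 FPKM in D152V rescue libraries, 28.7, 31.2 and 35.1 in wild-type rescue libraries, 44.5, 33.5 and 34.9 in MYB knockdown libraries and 33.9, 37.6 and 37.5 in control siRNA libraries. Its D152V rescue libraries lay below all knockdown and control libraries, and with 11 libraries RPA1 was lower in D152V rescue than in control siRNA (log2 change -0.26, limma adjusted p = 0.0322). The ratio of RPA3 to RPA1 was 0.758 ± 0.0124 in D152V rescue, 0.652 ± 0.0355 in wild-type rescue, 1.44 ± 0.601 in MYB knockdown and 0.604 ± 0.0709 in control siRNA (SD, n = 3 each).

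FEN1, the flap nuclease that trims Okazaki fragments (ENSG00000168496, chr11:61792911-61797238 on GRCh38.p14), had 47.0, 63.0 and 49.0 FPKM in D152V rescue libraries, 46.7, 54.6 and 47.5 in wild-type rescue libraries, 105, 69.2 and 58.0 in MYB knockdown libraries and 81.6, 94.6 and 94.4 in control siRNA libraries. Both rescues lay below all control libraries. Mean FEN1 was 53.0 ± 8.67 FPKM in D152V rescue, 49.6 ± 4.37 FPKM in wild-type rescue, 77.4 ± 24.6 FPKM in MYB knockdown and 90.2 ± 7.45 FPKM in control siRNA (SD, n = 3 each). FEN1 was lower than in control siRNA in D152V rescue (log2 change -0.76, SE 0.20, limma adjusted p = 0.0319) and in wild-type rescue (log2 change -0.85, SE 0.20, limma adjusted p = 0.0197). The D152V call was lost without any 1 of D152V rescue replicates 1 and 3 and control siRNA replicates 1, 2 and 3 (limma adjusted p 0.0637 to 0.121), and the wild-type call was lost without any 1 of wild-type rescue replicates 1 and 3 and control siRNA replicates 2 and 3 (limma adjusted p 0.0689 to 0.0767). In wild-type rescue it was also lower than in knockdown (log2 change -0.59, limma adjusted p = 0.036), a call lost without any 1 of wild-type rescue replicates 1, 2 and 3, MYB knockdown replicate 1 and control siRNA replicates 2 and 3 (limma adjusted p 0.0501 to 0.0993). In knockdown replicates 2 and 3 FEN1 was itself below control siRNA (log2 change -0.50, limma adjusted p = 0.0223 with 11 libraries). LIG1, the ligase that seals the fragments, had 21.0, 20.6 and 20.0 FPKM in D152V rescue libraries, 19.1, 21.0 and 22.3 in wild-type rescue libraries, 70.5, 28.6 and 30.1 in MYB knockdown libraries and 23.2, 23.6 and 23.8 in control siRNA libraries. Its knockdown libraries lay above all others and both rescues below all control libraries. LIG1 was lower than in knockdown in D152V rescue (log2 change -0.91, limma adjusted p = 0.0295) and in wild-type rescue (log2 change -0.89, limma adjusted p = 0.0218), with 11-library changes of -0.50 and -0.48. These calls were lost without any 1 of D152V rescue replicates 1, 2 and 3 (limma adjusted p 0.0728 to 0.0792) for D152V rescue, and without any 1 of wild-type rescue replicates 1 and 2 (limma adjusted p 0.0595 to 0.0677) for wild-type rescue. With 11 libraries LIG1 rose in knockdown over control siRNA (log2 change 0.31, limma adjusted p = 0.0207).

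PCNA, the sliding clamp, had 187, 206 and 171 FPKM in D152V rescue libraries, 143, 154 and 159 in wild-type rescue libraries, 508, 198 and 187 in MYB knockdown libraries and 191, 203 and 188 in control siRNA libraries. Knockdown replicate 1 was 2.62 times the control mean and its 2 companions lay in or next to the control range. The wild-type rescue libraries were below all others, and with 11 libraries PCNA was higher in D152V rescue than in wild-type rescue (log2 change 0.30, limma adjusted p = 0.0128), lower in wild-type rescue than in knockdown (log2 change -0.34, limma adjusted p = 0.0083) and lower in wild-type rescue than in control siRNA (log2 change -0.35, limma adjusted p = 0.00644). The 5 subunits of replication factor C load that clamp. RFC2 had 63.2, 62.5 and 52.3 FPKM in D152V rescue libraries, 52.5, 58.4 and 57.0 in wild-type rescue libraries, 99.7, 80.2 and 65.7 in MYB knockdown libraries and 66.5, 76.7 and 67.4 in control siRNA libraries, and was lower in wild-type rescue than in knockdown (log2 change -0.52, limma adjusted p = 0.0196), a call lost without wild-type rescue replicate 1 (limma adjusted p 0.0671). RFC5 had 70.2, 67.6 and 64.0 FPKM in D152V rescue libraries, 62.0, 62.0 and 71.8 in wild-type rescue libraries, 33.3, 58.3 and 58.1 in MYB knockdown libraries and 53.1, 59.4 and 55.7 in control siRNA libraries. Both rescues lay above all knockdown and control libraries, and with 11 libraries RFC5 was the 1 member higher in D152V rescue than in control siRNA (log2 change 0.26, limma adjusted p = 0.0267). RFC1, the large subunit, had 42.1, 49.9 and 48.2 FPKM in D152V rescue libraries, 36.9, 49.5 and 51.1 in wild-type rescue libraries, 32.5, 36.3 and 33.9 in MYB knockdown libraries and 39.5, 46.0 and 34.0 in control siRNA libraries. RFC3 had 43.6, 43.0 and 42.2 FPKM in D152V rescue libraries, 38.9, 44.1 and 44.9 in wild-type rescue libraries, 54.4, 46.0 and 41.2 in MYB knockdown libraries and 46.8, 49.0 and 42.1 in control siRNA libraries. Neither was called in any comparison, and RFC3 overlapped between all groups. RFC4 was called in none, with knockdown replicate 1 at 370.4 FPKM and the other libraries between 91.2 and 116 FPKM.

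Among the genes of chromatin and S phase control, DTL and UHRF1 differed between the rescues. DTL, the adaptor that marks CDT1 for destruction at PCNA, had 37.2, 43.1 and 42.5 FPKM in D152V rescue libraries, 48.6, 59.3 and 52.8 in wild-type rescue libraries, 28.6, 38.9 and 36.7 in MYB knockdown libraries and 46.2, 53.2 and 45.1 in control siRNA libraries. Its knockdown libraries lay below all wild-type rescue and control libraries. DTL was higher in wild-type rescue than in knockdown (log2 change 0.62, SE 0.14, limma adjusted p = 0.00596). With 11 libraries it was lower in D152V rescue than in wild-type rescue (log2 change -0.38, limma adjusted p = 0.011), and with the replicate number as a block, which pairs these 2 rescues, it passed with 12 libraries too (limma adjusted p 0.0375). UHRF1, which brings DNA methylation to new strands, had 23.3, 26.1 and 17.8 FPKM in D152V rescue libraries, 28.4, 31.3 and 27.6 in wild-type rescue libraries, 16.1, 34.4 and 28.1 in MYB knockdown libraries and 33.7, 37.5 and 33.1 in control siRNA libraries. D152V rescue lay below wild-type rescue and control siRNA, and with 11 libraries UHRF1 was lower in D152V rescue than in wild-type rescue (log2 change -0.38, limma adjusted p = 0.0439), in knockdown (log2 change -0.47, limma adjusted p = 0.0277) and in control siRNA (log2 change -0.63, limma adjusted p = 0.00437).

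CHAF1A and CHAF1B are the 2 larger subunits of the complex that puts histones on new DNA. CHAF1A had 31.0, 37.3 and 31.0 FPKM in D152V rescue libraries, 30.4, 40.0 and 28.5 in wild-type rescue libraries, 32.1, 32.7 and 31.8 in MYB knockdown libraries and 31.9, 37.3 and 36.9 in control siRNA libraries, and all its groups overlapped. CHAF1B had 26.0, 29.8 and 25.9 FPKM in D152V rescue libraries, 22.8, 31.6 and 25.6 in wild-type rescue libraries, 24.4, 22.1 and 19.1 in MYB knockdown libraries and 28.7, 31.5 and 27.6 in control siRNA libraries. Its knockdown libraries lay below all control libraries, and with 11 libraries it was lower in knockdown than in control siRNA (log2 change -0.49, limma adjusted p = 0.0221) and higher than in knockdown in D152V rescue (log2 change 0.39, limma adjusted p = 0.0392) and in wild-type rescue (log2 change 0.35, limma adjusted p = 0.0448). SLBP, which binds the ends of histone messages, had 79.7, 86.6 and 84.8 FPKM in D152V rescue libraries, 89.0, 107 and 91.0 in wild-type rescue libraries, 206, 95.1 and 95.02 in MYB knockdown libraries and 94.1, 101 and 96.6 in control siRNA libraries. It was called in no comparison, although D152V rescue lay below all other libraries.

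Knockdown against control siRNA asked what loss of MYB does. RPA3 and TK1 were called higher, 2 of 49 genes (4.08%), against 3.94% of all tested genes, and 0 were called lower by limma, against 7.38%. At an unadjusted p under 0.05 there were 3 higher (6.12%), against 13.5% of all tested genes, and 10 lower (20.4%), against 18.5%. With 11 libraries 3 were higher (6.12%), against 7.26% of all genes, adding LIG1. Lower with 11 libraries were 8 (16.3%), ORC2, ORC5, GINS2, GINS3, POLA2, FEN1, CHAF1B and DTL, against 12.9%. The median change of the 49 was -0.02, beside -0.03 over all tested genes. With quantile normalization the split was 3 higher and 1 lower, a count given without the share of all tested genes under that scaling.

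**Figure D3:**
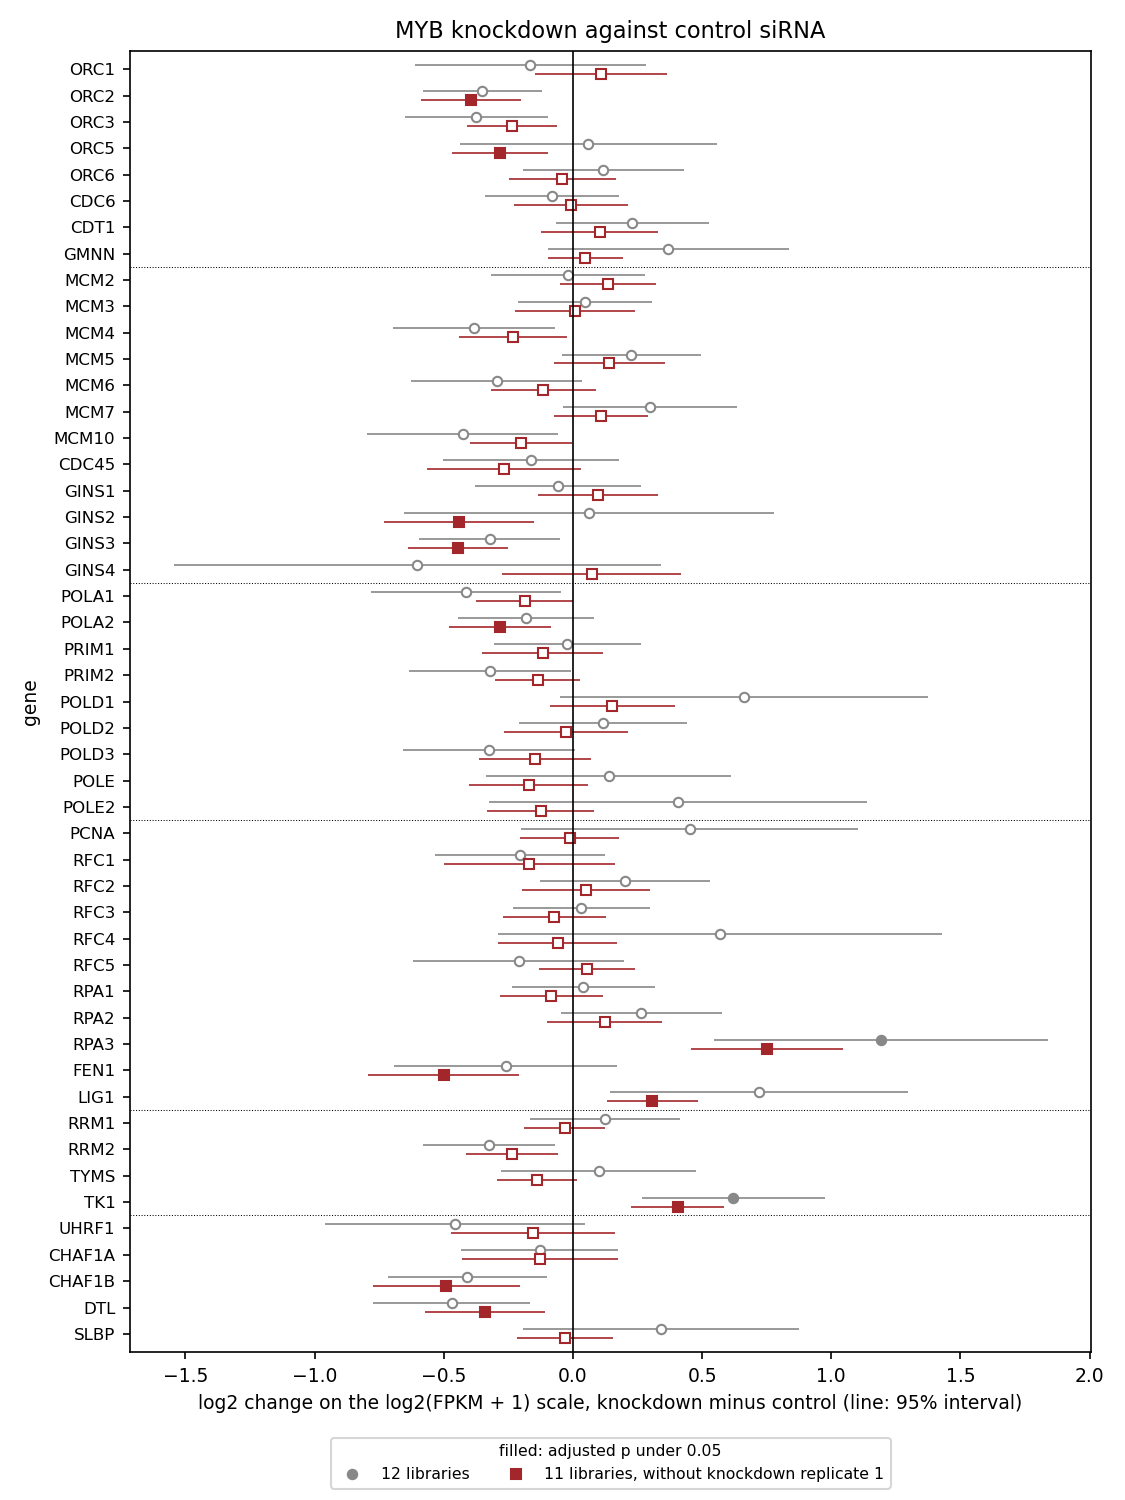
Log2 change of each replication gene in MYB knockdown minus control siRNA on the x axis, with 95% intervals from limma; circles are fits with 12 libraries, squares with the 11 that leave out MYB knockdown replicate 1, and filled symbols have an adjusted p under 0.05. RPA3 and TK1 are filled in both fits, and most intervals are narrower with 11 libraries.

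In the plot of knockdown changes, the circles of POLD1, RFC4, PCNA and GINS2 lie to the right of their squares and those of GINS4 and UHRF1 to the left. Across the 49 genes, the difference of knockdown replicate 1 from control correlated with log2 transcript length at r of -0.495, against -0.165 and -0.279 in replicates 2 and 3. Over 13098 tested genes with a length the same r were -0.404, -0.210 and -0.186. These are descriptions over genes that share a library, and the part of transcript length in the results was not tested.

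**Figure D4:**
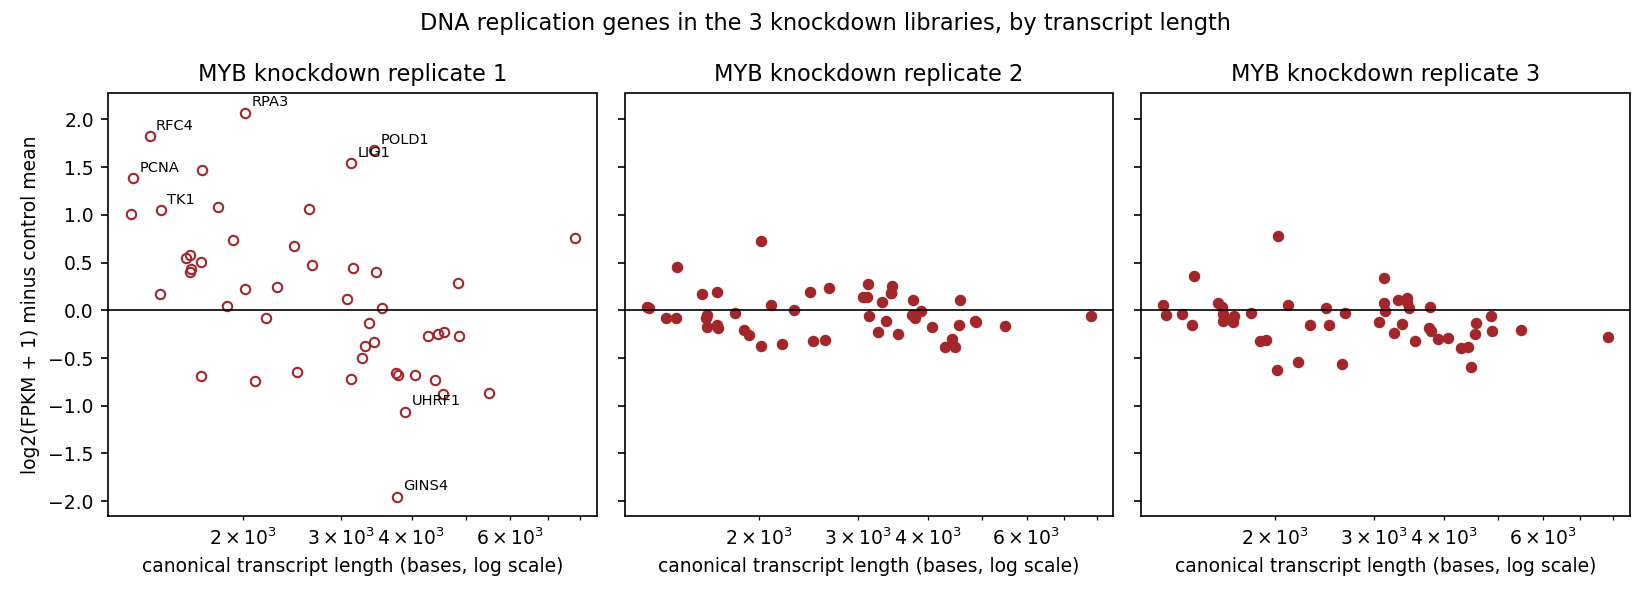
Each point is 1 replication gene in 1 knockdown library, with canonical transcript length in bases on a log x axis and log2(FPKM + 1) minus the control mean on the y axis. In replicate 1 the points span -1.95 to 2.07. High points there include short transcripts such as RFC4 and PCNA and longer ones such as LIG1 and POLD1. In replicates 2 and 3 all points lie within 1 log2 unit of 0.

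The length plot sets the 3 knockdown libraries side by side. RPA3 is the highest point in each of them and TK1 is among the few high points of replicates 2 and 3.

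Rescue against knockdown asked what re-expressed MYB changes. D152V rescue had 2 genes higher (4.08%), ORC3 and POLA2, against 13% of all tested genes, and 7 lower (14.3%), CDC6, MCM3, MCM7, RPA2, RPA3, LIG1 and TK1, against 12%. Wild-type rescue had 4 higher (8.16%), ORC2, ORC3, MCM4 and DTL, against 20.6%, and 12 lower (24.5%), against 16.9%. Those 12 were ORC6, CDT1, MCM3, MCM5, MCM7, POLD1, POLD2, RFC2, RPA3, FEN1, LIG1 and TK1. The median over the 49 genes was -0.20 in D152V rescue and -0.19 in wild-type rescue, beside 0.02 and 0.03 over all genes. Both comparisons use the same knockdown libraries. With 11 libraries D152V rescue had 4 higher (8.16%) against 16.6% and 10 lower (20.4%) against 15.9%, and wild-type rescue had 5 higher (10.2%) against 25.3% and 13 lower (26.5%) against 19.9%. With median-ratio scaling the split was 3 higher and 8 lower in D152V rescue, and 2 higher and 14 lower in wild-type rescue. With quantile normalization it was 4 higher and 7 lower in D152V rescue, and 3 higher and 12 lower in wild-type rescue. These scaled counts are given without the shares of all tested genes, so they cannot be set against that background. When only the 6 libraries compared were fitted, 0 genes were called by limma in D152V rescue and 3 in wild-type rescue.

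D152V rescue against wild-type rescue addressed the substitution, in 2 separate lines whose MYB means also differed, the D152V line at 73.4% of the wild-type line, so that substitution, line and MYB level cannot be told apart. TK1 was called higher, 1 of 49 (2.04%), against 5.96% of all tested genes, and CDC6 lower, 1 of 49 (2.04%), against 6.19%. With 11 libraries 4 were higher (8.16%), TK1, POLD2, MCM5 and PCNA, against 13.6%, and 6 lower (12.2%), CDC6, RPA2, UHRF1, DTL, ORC3 and POLE, against 17.8%. The median over the 49 genes was 0.04, beside -0.03 over all genes. With quantile normalization the split was 3 higher and 0 lower, again without the share of all tested genes under that scaling.

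**Figure D5:**
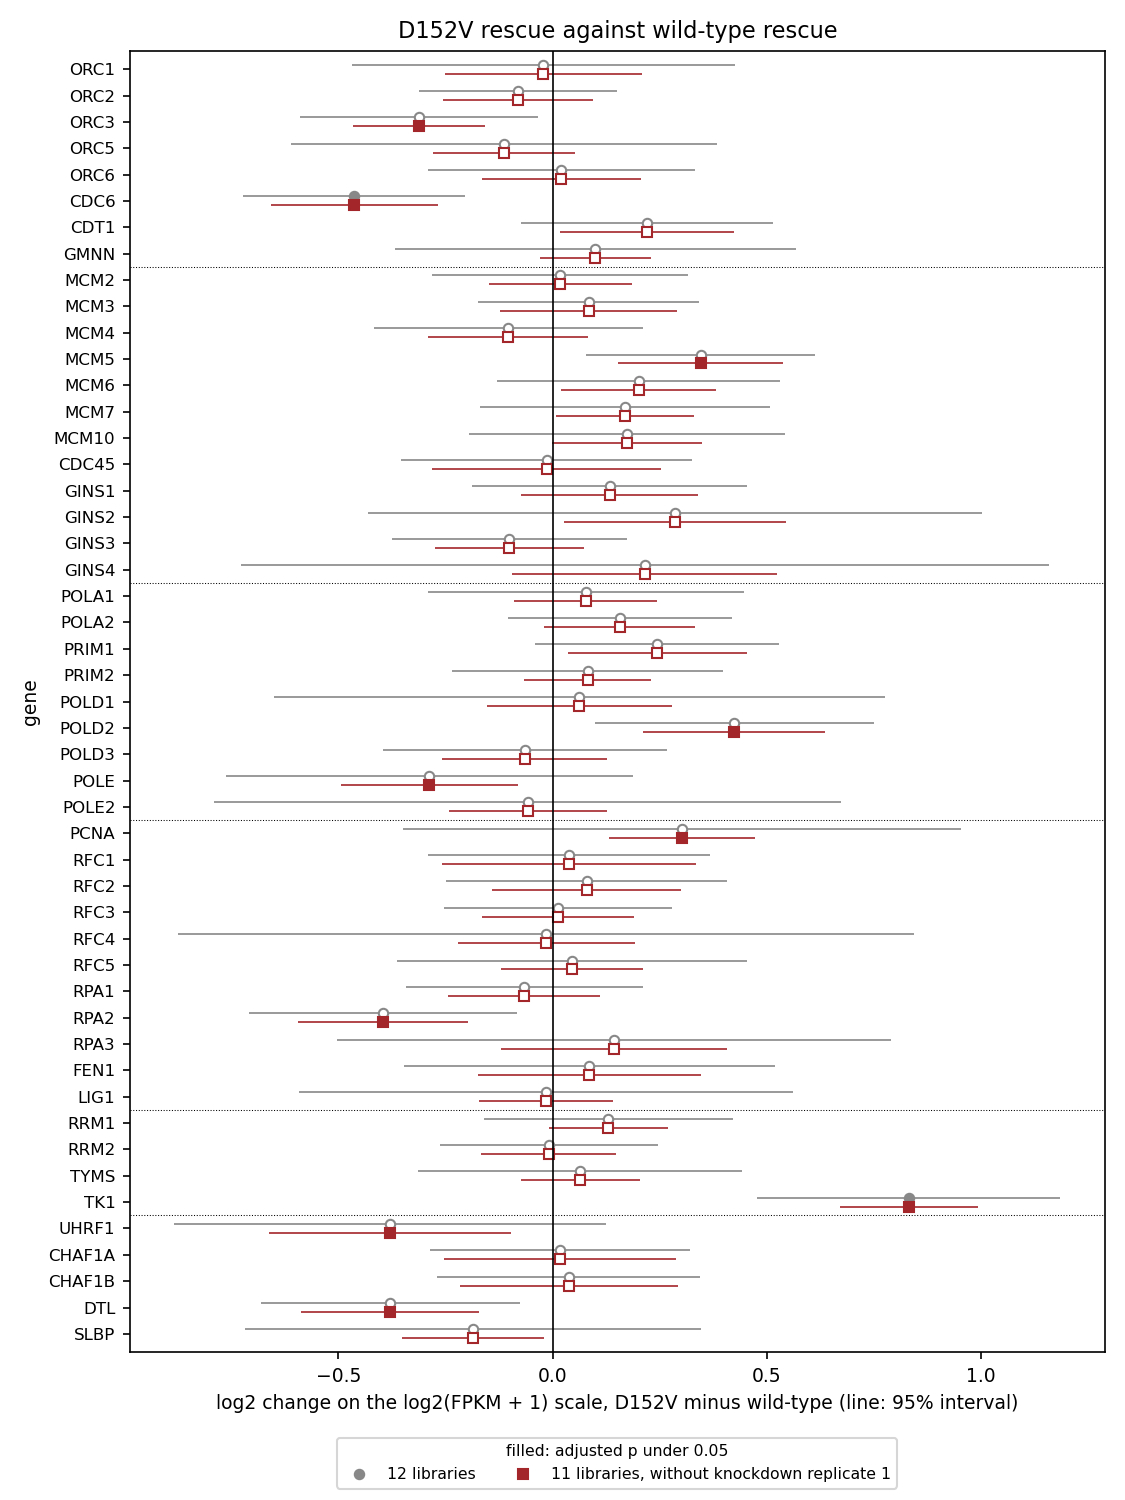
Log2 change of each replication gene in D152V rescue minus wild-type rescue on the x axis, with 95% intervals from limma; circles are fits with 12 libraries, squares with the 11 that leave out MYB knockdown replicate 1, and filled symbols have an adjusted p under 0.05. TK1 at 0.83 lies farthest to the right and CDC6 at -0.46 farthest to the left, and most other intervals include 0.

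In the plot of the 2 rescues both fits give the same log2 change for each gene, since no knockdown library enters it, and differ in the width of the interval. For genes that did not pass, the 12-library intervals still span sizable changes, for example -0.35 to 0.95 for PCNA and -0.43 to 1.00 for GINS2, so similar levels in the 2 lines were not shown.

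Rescue against control siRNA asked how far the rescue lines sit from cells with the non-targeting siRNA. D152V rescue had 4 genes lower (8.16%), CDC6, GINS3, RPA2 and FEN1, against 4.94% of all tested genes, and 0 higher, against 4.61%. Wild-type rescue had 3 lower (6.12%), MCM3, FEN1 and TK1, against 4.58%, and 0 higher, against 5.04%. At an unadjusted p under 0.05, limma gave 0 higher, against 10.2% of all tested genes, and 7 lower (14.3%), against 12.1%, in D152V rescue. In wild-type rescue it gave 1 higher (2.04%), against 11.6%, and 10 lower (20.4%), against 11.9%. With 11 libraries 13 were lower in D152V rescue (26.5%) against 16.4%, and 17 in wild-type rescue (34.7%) against 15.9%. Higher with 11 libraries were RFC5 in D152V rescue (2.04%) against 11.2%, and ORC3 in wild-type rescue (2.04%) against 13.8%. Changes were below 0 for 39 of the 49 genes in D152V rescue, with a median of -0.12, and for 41 in wild-type rescue, with a median of -0.15, beside medians of -0.04 and -0.02 over all genes. Those counts are 79.6% of the members in D152V rescue and 83.7% in wild-type rescue, while over all tested genes 55.1% lay below 0 in D152V rescue and 52.0% in wild-type rescue. The 2 comparisons share the control libraries, and whether the lines differed in cell cycle distribution was not tested. In bulk RNA, fewer cells in S phase and less RNA per cell cannot be told apart.

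Beyond the 49 members, 3 lists of related genes were read in the 12-library fit. Among 34 other replication factors, 7 fell (20.6%) and 2 rose (5.88%) in knockdown against control siRNA, beside 7.38% and 3.94% of all tested genes. Lower were DBF4 (-0.86) and CDC7 (-0.70), the activator and the kinase that fire licensed origins, ATAD5 (-0.79), which unloads PCNA, ORC4 (-0.70), MCMBP (-0.63), TOPBP1 (-0.55) and POLE3 (-0.41). Higher were POLD4 (1.11), the fourth delta subunit, and PCLAF (0.69), a PCNA partner. A value in brackets after a gene name, here and in the rest of this account of the lists, is a log2 change with a limma adjusted p under 0.05, and percentages are shares of genes called. In D152V rescue against knockdown 5 of the 34 rose, ORC4 (0.98), DBF4 (0.93), ATAD5 (0.76), POLE3 (0.56) and TOPBP1 (0.39), while PCLAF (-0.68) and ASF1B (-0.42) fell. These are 14.7% and 5.88% of the list, beside 13% and 12% of all tested genes. In wild-type rescue against knockdown 7 rose, ORC4 (1.12), DBF4 (1.17), TOP1 (0.86), ATAD5 (0.75), TOP2A (0.69), POLE3 (0.61) and MCMBP (0.43). Another 7 fell there, PCLAF (-1.23), POLD4 (-0.99), RNASEH2C (-0.87), ASF1B (-0.75), TIPIN (-0.71), DSCC1 (-0.52) and CHTF8 (-0.28). Each 7 is 20.6% of the list, beside 20.6% higher and 16.9% lower over all tested genes. Between the rescues POLD4 (0.89) and PCLAF (0.55) were higher in D152V rescue (5.88% of the list, beside 5.96%) and 0 were lower (beside 6.19%), with 3 lower (8.82%, beside 13.4%) at an unadjusted p under 0.05. With the replicate number as a block, MCMBP (-0.45, limma adjusted p = 0.0169) and TOP2A (-0.76, limma adjusted p = 0.0338) were called lower. Against control siRNA, D152V rescue had POLD4 higher (1.00) and MCMBP (-0.66) and CDC7 (-0.43) lower, 2.94% and 5.88% of the list beside 4.61% and 4.94%. Wild-type rescue had ASF1B (-0.55), PCLAF (-0.54) and CDC7 (-0.52) lower, 8.82% beside 4.58%.

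Among 22 other nucleotide enzymes, DUT (1.00), which clears dUTP, rose in knockdown against control siRNA and 4 fell. These were the purine enzymes GART (-1.39) and PAICS (-0.60), the CTP synthase CTPS1 (-0.76) and RRM2B (-0.46), the ribonucleotide reductase subunit used outside S phase. The list thus had 4.55% higher and 18.2% lower, beside 3.94% and 7.38% of all tested genes. GART (1.15), RRM2B (0.60) and DCK (0.52) were among those that rose in D152V rescue against knockdown, and DUT (-1.53), DTYMK (-1.33), SHMT1 (-0.51) and IMPDH2 (-0.45) fell, with 18.2% of the list called in each direction, beside 13% higher and 12% lower over all tested genes. In wild-type rescue 6 rose against knockdown, GART (1.47), CTPS1 (0.98), RRM2B (0.66), PAICS (0.54), DCK (0.52) and CMPK1 (0.37). Falling there were DUT (-1.43), NME1 (-1.20) and DTYMK (-1.17). These are 27.3% and 13.6% of the list, beside 20.6% and 16.9%. DTYMK follows TK1 in the thymidine salvage route. Between the rescues limma called 0 of the 22, with 1 higher (4.55%, beside 11.5%) and 2 lower (9.09%, beside 13.4%) in D152V rescue at an unadjusted p under 0.05, and 1 called with the replicate number as a block. SHMT1, a folate enzyme, was lower than in control siRNA in D152V rescue (-0.76) and in wild-type rescue (-0.51), the 1 gene of the list called in each (4.55% beside 4.94% and 4.58%).

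Among 29 E2F, RB and S phase cyclin regulators, SKP2 (-0.82), CDK6 (-0.74) and E2F4 (-0.50) fell and CDK4 (0.50) rose in knockdown against control siRNA, 10.3% and 3.45% of the list beside 7.38% and 3.94% of all tested genes. SKP2 marks the CDK inhibitor p27 for destruction, and CDK4 and CDK6 are the cyclin D kinases. CCND1 (0.80), CDKN1A (0.64) and CDK6 (0.57) rose in D152V rescue against knockdown, and CDK4 (-0.74) fell, 10.3% and 3.45% beside 13% and 12%. CDK6 (1.19), RB1 (0.96) and SKP2 (0.83) rose in wild-type rescue against knockdown, and E2F2 (-1.01), CDK4 (-0.96), E2F1 (-0.63), TFDP2 (-0.57) and CCNE2 (-0.47) fell, 10.3% and 17.2% beside 20.6% and 16.9%. In D152V rescue against wild-type rescue E2F2, an activating E2F, was higher (0.90), and SKP2 (-0.87) and CDK6 (-0.62) were lower, 3.45% and 6.90% beside 5.96% and 6.19%. Against control siRNA, D152V rescue had CDKN1A, the CDK inhibitor p21, higher (0.98), and SKP2 (-0.86), MYBL2 (-0.53) and E2F4 (-0.35) lower, 3.45% and 10.3% beside 4.61% and 4.94%. Wild-type rescue had CDKN1A (0.74) and CDK6 (0.45) higher and E2F2 (-0.90) lower, 6.90% and 3.45% beside 5.04% and 4.58%.

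Calls of these related genes that held without each of the 12 libraries were fewer. They were DBF4, CDC7, PCLAF and CDK6, 4 of 18, for knockdown against control siRNA, and 9 of 19 for D152V rescue and 17 of 31 for wild-type rescue against knockdown. DBF4, ORC4, POLE3, PCLAF, RRM2B, DUT, GART, CDK4 and CDK6 were the 9 of D152V rescue, and all were also among the 17 of wild-type rescue. Between the rescues PCLAF, SKP2 and CDK6 held, 3 of 5. Against control siRNA SKP2 and SHMT1 held in D152V rescue, 2 of 8, and 0 of 7 did in wild-type rescue. The lost calls had limma adjusted p values of 0.05004 to 0.177 without a library that ended them.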

How the data were processed

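RNA was measured in 12 K-562 libraries, 3 for each of 4 groups, assigned from the sample titles. The values are FPKM in 1 table as the authors deposited it. Its making involved TopHat2 2.0.13, Cufflinks 2.2.1, Trimmomatic 0.33, bcl2fastq 2.17.1.14 and the GRCh38 assembly, per the submitters' processing notes, which give them no roles. Neither the annotation nor the strand setting is given in the sources used here. Read counts could not be recovered: per pair of libraries, a median of 4.91% of low-value ratios lay within 2% of that pair's median ratio. Depth is therefore unknown and count models were not used. FPKM depends on transcript length and on what the most abundant transcripts of a library take up. Genes were kept where 3 or more libraries reached 1 FPKM. Values were analysed as log2(FPKM + 1), which understates changes of low genes, in 1 limma 3.58.1 model of all 12 libraries (R 4.3.3, variance trend, 8 residual degrees of freedom), with Benjamini-Hochberg adjustment over 13393 genes at 0.05. The procedure was tested on simulated data with spreads taken without MYB knockdown replicate 1, so the effect of that library was not covered. The same fit was run without MYB knockdown replicate 1. Alternatives were a pseudocount of 0.1, no filter, quantile normalization, median-ratio scaling, only the 6 libraries compared, the replicate number as a block, and leaving out each library.

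Whether equal replicate numbers pair libraries was checked over genes by correlating deviations from group means. Between D152V rescue and wild-type rescue, same-numbered pairs had r of 0.153 to 0.233 and differently numbered pairs -0.220 to 0.062. Differently numbered libraries of other group pairs reached similar values, such as 0.218 for wild-type rescue replicate 1 with control siRNA replicate 2. Deviations also cancel within a group, so these r are not independent and pairing was not established. Blocked values are given beside results they change between these rescues. Members and lists were chosen with earlier results of these data known, so p values are not independent of that choice. Per-library values are given for members called in any comparison and for a set of fixed members, and the other members by range. Symbols were matched through Ensembl identifiers, promoters and coordinates from RefSeq on GRCh38.p14, and exon overlaps and transcript lengths from a GENCODE annotation lifted to another build. One gene of the related lists is counted but not reported here by name. No column belongs to other samples and no pair of libraries is identical. The replicates are 3 experiments per the series' design text, and p values measure the spread between them. Tables and figures used Python 3.11.15, pandas 2.3.3 and matplotlib 3.10.9.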

Additional observations from a re-analysis of the deposited data

Results flagged for a closer look

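In D152V rescue and wild-type rescue, 2 replication genes differed by the direct limma test between these separate lines, which received the same MYB siRNA. TK1, the thymidine kinase, differed by 0.83 on the log2 scale (limma adjusted p = 0.00578), a call that held under all 18 alternatives. Against knockdown its change was -0.79 in D152V rescue and -1.63 in wild-type rescue, and against control siRNA it was -0.17 in D152V rescue and -1.01 in wild-type rescue. CDC6, the MCM loader, differed by -0.46 (limma adjusted p = 0.0249), a call lost without any 1 of D152V rescue replicates 1 and 3 and wild-type rescue replicates 1, 2 and 3 (limma adjusted p 0.0614 to 0.108) and with quantile normalization (limma adjusted p 0.0849). Its change against knockdown was -0.51 in D152V rescue and -0.05 in wild-type rescue. MYB itself was at 73.4% of its wild-type rescue mean in D152V rescue. The part of that level in the 2 differences was not tested.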

How the results depend on the processing

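Over 18 alternative settings, single-gene results kept their side of the threshold in 8344 cases, which may include uncalled values that changed sign. They gained a call in 254 and lost one in 578, and a value called in either fit changed sign in 4. The 4 arose without MYB knockdown replicate 1. Over the libraries left out, knockdown minus control ran from -0.28 to 0.24 in ORC5 and from -0.44 to 0.38 in GINS2, wild-type rescue minus knockdown from -0.45 to 0.58 in GINS4, and D152V rescue minus knockdown from -0.31 to 0.40 in TOP1, the lowest value being the one without that library. Calls that held in all 18 were TK1 (wild-type rescue against knockdown and control siRNA, and D152V against wild-type rescue), ORC3 and MCM5 (wild-type rescue against knockdown) and CDC6 (D152V rescue against control siRNA).

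For D152V against wild-type rescue the count of members called was 2, and 8 with only the 6 libraries compared; all genes called were 1627 and 3275. For D152V rescue against knockdown members called were 9 and, with only 6 libraries, 0, with all genes at 3355 and 548. For wild-type rescue against knockdown they were 16 and 3, with all genes at 5031 and 1689. For D152V rescue against control siRNA members called were 4, 2 with no filter and 14 with only 6 libraries, with all genes at 1279 and 3575. For wild-type rescue against control siRNA they were 3, 5 with quantile normalization and 17 with only 6 libraries, with all genes at 1289 and 3512. For knockdown against control siRNA they were 2, 4 with quantile normalization, 0 with no filter and 0 with only 6 libraries, with all genes at 1516, 738 with no filter and 16 with only 6 libraries. The cause was not tested, beyond the fewer libraries and the exclusion of knockdown replicate 1 from the spread of comparisons fitted without it. Counts of all genes with quantile normalization are not given, so the members' counts there have no background beside them.

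Leaving out each library in turn gave 1 to 10 members and 1020 to 4209 genes for D152V against wild-type rescue, 3 to 18 members and 1639 to 4389 genes for D152V rescue against knockdown, and 10 to 19 members and 3194 to 6055 genes for wild-type rescue against knockdown. Against control siRNA it gave 1 to 14 members and 725 to 3706 genes for D152V rescue, 1 to 18 members and 682 to 3973 genes for wild-type rescue, and 0 to 11 members and 173 to 2697 genes for knockdown.

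With the replicate number as a block, members called were 3 and all genes called 1871 for D152V against wild-type rescue, where same-numbered pairs had r of 0.153 to 0.233. For knockdown against control siRNA they were 4 and 1712, and same-numbered pairs there correlated more weakly (r of 0.038 to 0.132). Between the rescues the block added DTL and ended the call of MYB, and it changed no other member's call there. No scaling moved the median of all genes by over 0.1. Depth is unknown, so the smallest change that could be seen in low genes was not set.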
